A study of Homo sapiens with 6 samples.

Results

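The genes described here are 60 nucleolar ribosome biogenesis factors, listed by name with earlier results of these data known. All 60 were found among the 23228 genes of the count tables. By role they divide into 8 genes of small nucleolar ribonucleoproteins (snoRNPs), 26 genes of the small subunit (SSU) processome, 8 genes of the pre-40S particle, 15 genes of 60S assembly and 3 multifunctional nucleolar genes. Their mRNA was measured by RNA-seq in HEC-1-A, a human endometrial adenocarcinoma line grown in McCoy's 5A medium with serum. The control group held 3 libraries, whose labels name only the medium while the methods of the study name vehicle. The treated group held 3 libraries of cells that received SMIP34 at 20 µM for 24 h. SMIP34 is a small molecule described by the study as an inhibitor of PELP1, the scaffold protein of the Rix1 complex of 60S assembly, and the comparison addresses whether genes of ribosome biogenesis change with it. All libraries come from 1 cell line, and the labels do not say whether replicates were separate cultures, so p-values measure only the spread between these libraries.

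Ribosomes are assembled in the nucleolus, where RNA polymerase I makes a long precursor of the ribosomal RNAs (rRNAs). Box C/D snoRNPs methylate that precursor and box H/ACA snoRNPs convert uridines in it to pseudouridine, each guided by a small nucleolar RNA. The SSU processome folds and cuts the part that becomes 18S rRNA, and pre-40S factors carry the particle to the cytoplasm, while another set of factors, including the PES1-BOP1-WDR12 complex and several GTPases and helicases, builds the 60S subunit. Proliferating cells, tumour cells among them, express these genes at high levels.

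The promoters of the members are described first, since their letters do not depend on the treatment. RefSeq promoter windows (table build GRCh38.p14), each covering 250 bases before and 50 bases after a transcription start, were matched by symbol for 51 of the 60 members. No entry was matched for NOP58, NOLC1, NOL10, MPHOSPH10, DDX52, RRP12, BOP1, RRP1B and DDX18. The E-box CACGTG, a palindrome recognised by many basic helix-loop-helix factors, was present in 19 of the 51 windows (37.3%), against 934 of the 9155 windows of all genes tested that were matched (10.2%). The letters CCGGAA, read on both strands and found in sites of ETS factors, were in 26 of the 51 windows (51.0%) against 29.9% of all genes tested. The GC box GGGCGG was in 38 windows (74.5%) against 70.3%, and TATAAA was in 3 windows (5.88%) against 5.23%. The E-box, CCGGAA and GGGCGG overlapped each other in 1 member promoter. In 17 of the 19 genes with an E-box, the first base of an E-box lay between -15 and 36 counted from the start. Base 1 is the first base of the transcript and -1 the base before it. Some of these genes hold a second E-box further upstream. By response, the E-box was in 2 of 8 windows of members that were lower with SMIP34, in 6 of 14 of those that were higher and in 11 of 29 of those that did not pass the test. These are letter matches and not measured binding.

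Windows of 30 bases around the E-box are shown for 7 of the 8 members that passed the test and hold one, with CACGTG in capitals, 5′ to 3′ on the strand of the gene. They were placed on GRCh37 (the assembly of hg19) by exact match. NOP10 has the E-box shown at base -11 (chr15:34635331-34635360, minus strand, in an exon of the files' annotation) and another at base -170, before the annotated gene. IMP4 has the E-box shown at base 16 (chr2:131100473-131100502, plus strand, partly in an exon) and another at base -203, before the annotated gene. NOP14 has its E-box at base 16 (chr4:2965101-2965130, minus strand, partly in an exon). NOL6 has it at base 14 (chr9:33473892-33473921, minus strand, in an exon). UTP20 has it at base -10 (chr12:101673861-101673890, plus strand, before the annotated gene). WDR43 has it at base 4 (chr2:29117524-29117553, plus strand, partly in an exon). GNL2 has it at base 4 (chr1:38061518-38061547, minus strand, in an exon).
NOP10: gaaattgacgaaCACGTGacgcggtcgggc
IMP4: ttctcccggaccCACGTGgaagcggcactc
NOP14: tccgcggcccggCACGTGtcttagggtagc
NOL6: ggcatttccgccCACGTGggaagctatgag
UTP20: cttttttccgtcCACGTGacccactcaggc
WDR43: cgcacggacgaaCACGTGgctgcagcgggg
GNL2: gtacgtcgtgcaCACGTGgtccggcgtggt
In NOP2, the other member that passed, the E-box begins at base 36 and a window of this size would run past the end of the RefSeq sequence. The bases next to the E-box differ among these 7 genes. NOP10 and IMP4 were lower with SMIP34 and the other 5 were higher, as described below.

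Libraries held 19562711 to 22014835 counts, and the members took 0.662 to 0.672% of them in control and 0.669 to 0.682% in SMIP34-treated cells. Members had between 217 and 29806 counts in a library. The 7 epithelial marker genes checked were all at 1 CPM (counts scaled to library size) or more, and their summed level was 3210 to 3280 CPM in control and 3075 to 3085 CPM in SMIP34-treated cells. Fibroblast markers summed to 3.59 to 4.47 CPM in control and 4.72 to 5.21 CPM in treated cells, with 1 of 6 at 1 CPM or more and LUM at 0. Immune markers (1 of 4 at 1 CPM or more, CD3E at 0) summed to 0.817 to 1.48 and 1.12 to 2.25 CPM, and endothelial markers (0 of 3) to 0.318 to 0.716 and 0.138 to 0.233 CPM. The part of these levels in the results below was not tested. The mRNA of PELP1, the protein that SMIP34 is directed at, was 133, 146 and 138 CPM in control and 158, 159 and 151 CPM in SMIP34-treated cells, which is 0.16 higher on the log2 scale (standard error (SE) 0.035, adjusted p = 0.000746 in the quasi-likelihood test of edgeR). For PELP1 protein, which these libraries do not measure, the study reports a decrease with SMIP34 by Western blotting.

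Levels per kilobase of exon, which allow genes to be compared, spanned a wide range among the members. The median member stood at 24.4 CPM per kb in control cells. NPM1, a histone and ribosomal protein chaperone, was the most abundant at 773 CPM per kb, followed by FBL, the methyltransferase of box C/D snoRNPs, at 295 CPM per kb, NHP2 at 279.6 CPM per kb and NCL (nucleolin) at 279 CPM per kb. The lowest were RIOK2, a kinase of late pre-40S particles, at 2.37 CPM per kb and UTP20, a very large SSU processome protein, at 2.60 CPM per kb. By role, the median control level was 68.8 CPM per kb for snoRNP genes, 31.8 for 60S assembly, 15.5 for pre-40S and 14.8 for the SSU processome. Among the SSU processome genes IMP4 was the most abundant at 81.7 CPM per kb, among the pre-40S genes NOB1 at 66.7, and among the 60S genes EBNA1BP2 at 84.8, while GNL3L was the lowest 60S gene at 3.96. EBNA1BP2, a nucleolar factor of large subunit assembly, was at 143, 142 and 132 CPM in control and 134, 141 and 140.4 CPM in SMIP34-treated cells, and GNL3L, a GTPase related to nucleostemin, was at 34.7, 33.8 and 34.7 against 34.0, 33.3 and 34.6 CPM. The groups overlapped for both, and neither gene passed the test (log2 fold change -0.01, 95% interval -0.08 to 0.06, for EBNA1BP2, and -0.02, interval -0.12 to 0.09, for GNL3L).

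**Figure D1:**
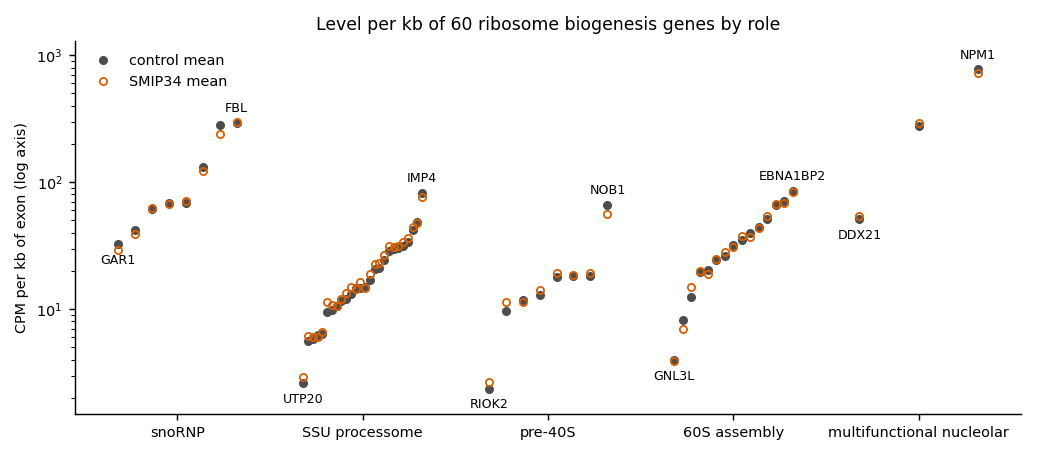
Mean level of each of the 60 members in CPM per kilobase of exon (log axis), by role, with filled points for the 3 control libraries and open points for the 3 SMIP34 libraries. The lowest and highest member of each role are named, from RIOK2 at 2.37 to NPM1 at 773 CPM per kb in control, and no member differs between the groups by more than 0.28 on the log2 scale.

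With SMIP34, members changed in both directions and by small amounts. In these bulk libraries, less mRNA per cell and fewer cells that express a gene cannot be told apart. In edgeR's quasi-likelihood test with adjustment over all 13408 genes tested, 8 members were lower and 17 were higher at an adjusted p under 0.05, and 35 did not pass. Of all genes tested, 17.2% were lower and 17.4% were higher, against 13.3% and 28.3% of the members. No member passed an absolute log2 fold change of 0.5 (the fold limit). Of all genes tested, 3.31% passed both this limit and an adjusted p under 0.05. Fold changes of the members ran from -0.25 for NOB1 to 0.28 for NOP2 on the log2 scale, with a median of 0.053 beside -0.0022 for all genes tested. The median absolute log2 fold change was 0.13 among the members that passed and 0.20 among all genes that passed. All 3 SMIP34 libraries lay below all 3 controls for 8 members (13.3%, against 21.9% of all genes tested) and above them for 24 members (40%, against 22.6%), and the groups overlapped for 28. The 8 and 17 members that passed were among these. For the 35 members that did not pass, the 95% intervals of the log2 fold change lay within -0.45 to 0.37. DESeq2 called 4 members lower (6.67%) and 10 higher (16.7%), against 13.4% and 13.8% of the genes to which it gave an adjusted p. Leaving out 1 library gave 4 (without SMIP34 replicate 3), 5 (without control replicate 1) or up to 9 (without control replicate 3) lower members. The 17 higher members became 10 without SMIP34 replicate 2. Fewer genes of any kind were called in most of these fits. With all libraries 4645 genes were called in either direction. They were 3899 without SMIP34 replicate 3, 3963 without control replicate 1, 3726 without SMIP34 replicate 2 and 4646 without control replicate 3.

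**Figure D2:**
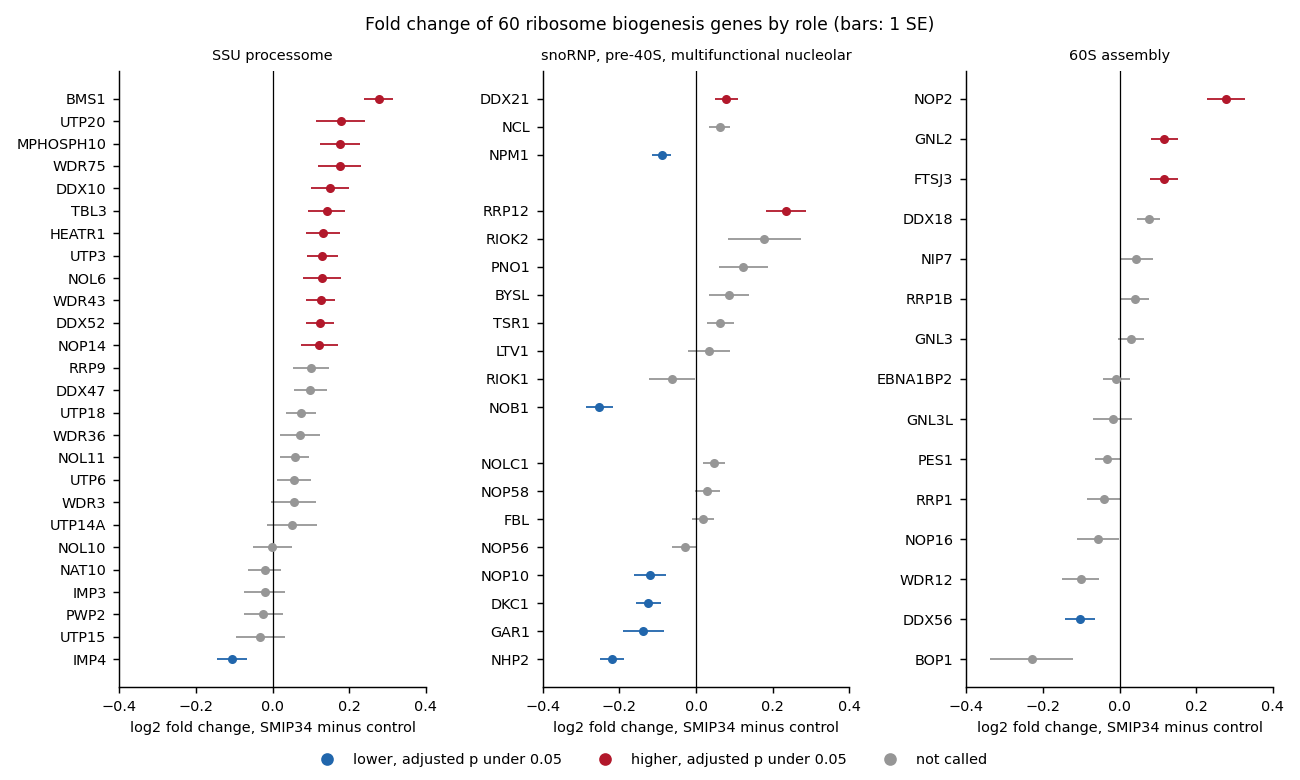
Log2 fold change (SMIP34 minus control) of the 60 members from edgeR's quasi-likelihood test, ordered within each role, with bars of 1 SE; in the middle panel the roles stand, from the bottom, as snoRNP, pre-40S and multifunctional nucleolar genes. Blue points are the 8 members lower and red points the 17 higher at an adjusted p under 0.05, with 12 of the 17 among the 26 SSU processome genes and 4 of the 8 lower ones among the 8 snoRNP genes.

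Among the 8 snoRNP genes 4 were lower (50%, against 17.2% of all genes tested), none was higher (against 17.4%) and 4 did not pass. Their median log2 fold change was -0.075. The 4 that fell are the core proteins of box H/ACA snoRNPs, a grouping made after the values were seen. NHP2, which binds the RNA of these particles, was at 241, 249 and 226 CPM in control and 204, 204 and 208 CPM in SMIP34-treated cells. All treated libraries lay below all controls, and NHP2 (chromosome 5 of hg19, 177576465 to 177580961) fell by 0.22 on the log2 scale (SE 0.032, adjusted p = 6.71e-06). DKC1, or dyskerin, the pseudouridine synthase of the particle, was at 108, 109 and 110.1 CPM in control and 100.2, 99.4 and 101 CPM with SMIP34. Its replicates were close and the groups were apart, and DKC1 (chromosome X, 153991031 to 154005964) fell by 0.12 (SE 0.033, adjusted p = 0.00491). GAR1, a small protein bound to dyskerin in the particle, was at 44.1, 38.6 and 40.03 against 36.3, 36.9 and 38.3 CPM, so that the lowest control and the highest treated library nearly met. It fell by 0.14 on the log2 scale (SE 0.054, adjusted p = 0.0475). NOP10, the smallest of the core proteins, was at 69.7, 73.8 and 68.8 against 66.6, 63.6 and 65.2 CPM, and fell by 0.12 (SE 0.041, adjusted p = 0.023).

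FBL, NOP56 and NOP58, the 3 members among the core proteins of box C/D snoRNPs, did not pass the test, and whether they differ from the box H/ACA genes was not tested. FBL was at 347, 351 and 332 CPM in control and 344, 354 and 345 CPM with SMIP34, with a log2 fold change of 0.02 (95% interval -0.04 to 0.08). NOP56 had a log2 fold change of -0.03 (interval -0.10 to 0.04) and NOP58 of 0.03 (interval -0.04 to 0.10). The remaining core protein is encoded by NHP2L1 (SNU13), which is not a member and was named after its values were seen. It was at 160.3, 158 and 144 CPM in control and 143, 145 and 149.8 CPM with SMIP34, with overlapping groups and a log2 fold change of -0.08 that did not pass (adjusted p = 0.109). The 95% interval of NHP2, the largest decrease of the box H/ACA genes, was -0.28 to -0.15 and lay below those of FBL, NOP56 and NOP58. The intervals of DKC1 (-0.19 to -0.06), GAR1 (-0.25 to -0.03) and NOP10 (-0.20 to -0.04) overlapped that of NOP56. NOLC1, a chaperone that binds both kinds of snoRNP, was at 274, 264 and 274 against 276, 282 and 281 CPM, a log2 fold change of 0.05 that did not pass (adjusted p = 0.208). The calls of GAR1 and NOP10 were lost without some single libraries. GAR1 did not pass without control replicate 1 (log2 fold change -0.08) or SMIP34 replicate 1 (-0.12), 2 (-0.13) or 3 (-0.16), and NOP10 did not without control replicate 2 (-0.09) or SMIP34 replicate 2 (-0.10) or 3 (-0.12), while NHP2 and DKC1 passed in all 19 fits made.

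**Figure D3:**
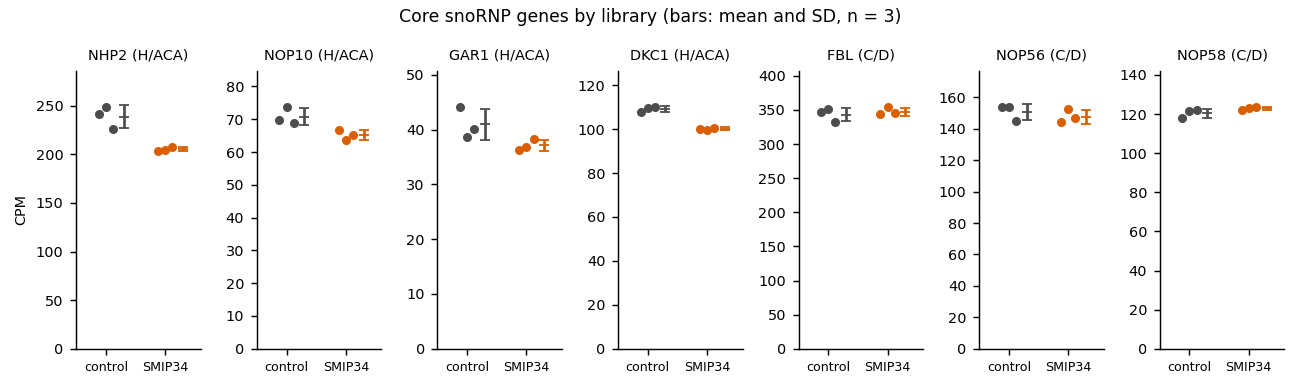
CPM in each library of 4 core genes of box H/ACA and 3 of box C/D snoRNPs, on axes that start at 0, with the mean and SD of 3 libraries beside the points. The SMIP34 points of NHP2, NOP10, GAR1 and DKC1 all lie below their controls, while those of FBL and NOP56 overlap them and those of NOP58 lie just above.

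The SSU processome held 26 of the 60 members and 12 of their 17 increases. Of its genes 1 was lower (3.85%), 12 were higher (46.2%) and 13 did not pass, against 17.2% lower and 17.4% higher of all genes tested. Its median log2 fold change was 0.10. All 3 treated libraries lay above all controls for 15 of the 26, and for 22.6% of all genes tested. BMS1, the GTPase of the processome, was at 76.3, 74.3 and 77.2 CPM in control and 88.8, 92.6 and 94.5 CPM with SMIP34. The groups were well apart, and BMS1 (chromosome 10, 43277954 to 43330385) rose by 0.28 on the log2 scale (SE 0.038, adjusted p = 2.31e-06). Its counts were not whole numbers in 3 libraries, since some reads were divided between places or genes, and its count is uncertain to that extent. MPHOSPH10, the scaffold of the MPP10 subcomplex, was at 33.5, 33.6 and 31.9 against 36.4, 37.7 and 37.7 CPM and rose by 0.18 (SE 0.051, adjusted p = 0.00892). UTP20 was at 23.0, 23.3 and 23.9 against 26.0, 28.7 and 24.7 CPM, with SMIP34 replicate 2 the highest, and rose by 0.18 (SE 0.064, adjusted p = 0.0331). The call of UTP20 was lost without SMIP34 replicate 2 (log2 fold change 0.12) or 1 (0.19) and without control replicate 1 (0.17) or 2 (0.18).

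IMP4, a partner of MPHOSPH10 and IMP3, was the 1 processome gene that was lower. It was at 86.8, 88.8 and 81.4 CPM in control and 79.98, 80.9 and 78.1 CPM with SMIP34, which left a narrow gap between the groups. It fell by 0.11 on the log2 scale (SE 0.039, adjusted p = 0.038), and it did not pass without control replicate 1 (-0.09) or 2 (-0.08) or without SMIP34 replicate 1 (-0.11), 2 (-0.12) or 3 (-0.09). Of the 3 genes of the MPP10 subcomplex, MPHOSPH10 rose, IMP4 fell and IMP3 had a log2 fold change of -0.02 that did not pass.

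The other increases in the processome were WDR75, DDX10, TBL3, HEATR1, UTP3, NOL6, WDR43, DDX52 and NOP14, with log2 fold changes from 0.12 to 0.18. In the t-UTP subcomplex, which acts early and is linked to transcription of the rRNA genes, WDR75 (0.18), HEATR1 (0.13) and WDR43 (0.13) rose, while NOL11 (0.06) and UTP15 (-0.03) did not pass. A further gene of this subcomplex, CIRH1A (UTP4), is not a member and had a log2 fold change of -0.04 that did not pass. In the UTP-B subcomplex, TBL3 (0.14) rose and the other 5 genes (UTP6, UTP18, WDR3, WDR36 and PWP2) did not pass, with values between -0.02 and 0.07. The helicases DDX10 (0.15) and DDX52 (0.12) rose and DDX47 (0.10) did not pass, nor did RRP9 (0.10), a protein specific to the U3 snoRNP, UTP14A (0.05), NOL10 (0.00) and NAT10 (-0.02), the acetyltransferase of 18S rRNA. With GC offsets the calls of WDR75 (0.13, adjusted p = 0.0714), HEATR1 (0.10, adjusted p = 0.0814), WDR43 (0.08, adjusted p = 0.0777) and DDX52 (0.08, adjusted p = 0.0898) were lost, while RRP9 passed (0.14). RRP9 also passed without control replicate 2 (0.14) and DDX47 without SMIP34 replicate 2 (0.14). These subcomplexes were grouped after the values were seen. Without 1 library, the call was lost for WDR75 (without control replicate 3, 0.11, or SMIP34 replicate 3, 0.14), WDR43 (without control replicate 2, 0.11, or SMIP34 replicate 1, 0.11), UTP3 (without SMIP34 replicate 2, 0.11) and NOP14 (without SMIP34 replicate 2, 0.06, or control replicate 1, 0.09, or 2, 0.13). It was lost in the same way for NOL6 (5 of the 6 libraries) and for DDX10, TBL3 and HEATR1 (4 of the 6 libraries each), with adjusted p-values of up to 0.297.

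The median log2 fold change was 0.075 among the 8 pre-40S genes. Of them 1 was lower and 1 was higher (12.5% each, against 17.2% and 17.4% of all genes tested), and 6 did not pass. The median was 0.049 without SMIP34 replicate 3 and 0.11 with length offsets. NOB1, the endonuclease that makes the final cut of 18S rRNA, was at 111, 117 and 115 CPM in control and 98.1, 97.2 and 93.0 CPM with SMIP34. All treated libraries lay below all controls, and NOB1 (chromosome 16, 69775774 to 69788829) fell by 0.25 on the log2 scale (SE 0.035, adjusted p = 3.39e-06). RRP12, a factor of pre-40S export, was at 40.4, 45.4 and 41.6 against 51.2, 52.1 and 46.9 CPM and rose by 0.23 (SE 0.052, adjusted p = 0.000903). RIOK2 was at 12.8, 9.98 and 10.49 against 12.3, 12.7 and 12.4 CPM. Control replicate 1 lay among the treated libraries, and the log2 fold change of 0.18 (95% interval -0.02 to 0.37) did not pass (adjusted p = 0.149) but did without that library (0.29, adjusted p = 0.0297, against 0.0297 to 0.472 over all alternatives). PNO1, the partner of NOB1, had a log2 fold change of 0.12, BYSL of 0.09, TSR1 of 0.06, LTV1 of 0.03 and the kinase RIOK1 of -0.06, and none of them passed.

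**Figure D4:**
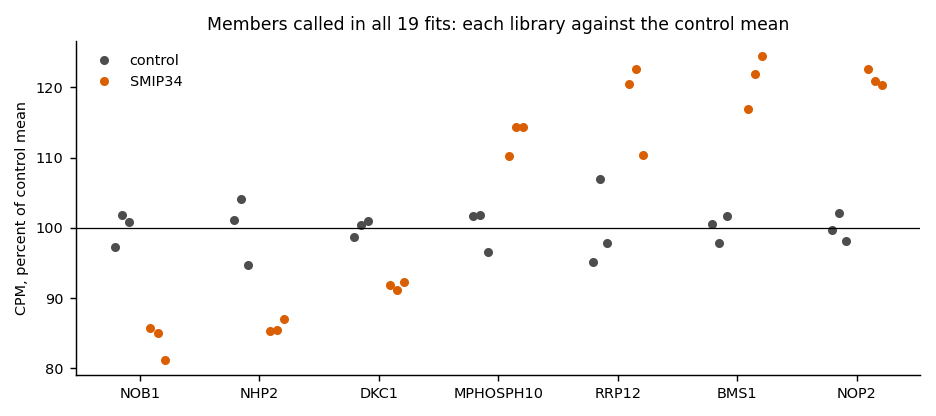
CPM of each library as a percentage of the control mean for the 7 members that passed in the same direction in all 19 fits, with controls in grey and SMIP34 in orange; the axis does not start at 0. NOB1, NHP2 and DKC1 lie below all controls in the 3 SMIP34 libraries and MPHOSPH10, RRP12, BMS1 and NOP2 above them, with log2 fold changes from -0.25 to 0.28.

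The 60S assembly genes were divided, with 1 of 15 lower (6.67%), 3 higher (20%) and 11 that did not pass. Of all genes tested, 17.2% were lower and 17.4% were higher. The median log2 fold change of the 15 genes was -0.0084. NOP2, a methyltransferase that modifies a cytosine of 28S rRNA, was at 33.6, 34.5 and 33.2 CPM in control and 41.4, 40.8 and 40.6 CPM with SMIP34. Its replicates differed by little and NOP2 (chromosome 12, 6666037 to 6677480) rose by 0.28 on the log2 scale (SE 0.049, adjusted p = 7.76e-05). GNL2, a GTPase of pre-60S export, was at 84.4, 83.5 and 82.7 against 88.7, 91.0 and 92.1 CPM and rose by 0.12 (SE 0.036, adjusted p = 0.0122). FTSJ3, an rRNA methyltransferase, was at 93.3, 93.1 and 91.5 against 98.1, 105 and 98.5 CPM and rose by 0.12 (SE 0.036, adjusted p = 0.0139). DDX56, a helicase of early 60S particles, was at 102, 98.0 and 96.2 against 94.3, 94.9 and 86.3 CPM, and it fell by 0.10 (SE 0.039, adjusted p = 0.0444). The call of DDX56 was lost without SMIP34 replicate 3 (-0.06) or control replicate 1 (-0.08) or 2 (-0.11), that of FTSJ3 without SMIP34 replicate 2 (0.09) and that of GNL2 without SMIP34 replicate 3 (0.11).

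None of the 3 genes of the PES1-BOP1-WDR12 complex passed. BOP1 was at 19.1, 16.7 and 22.1 CPM in control and 13.4, 20.5 and 15.5 CPM with SMIP34, the member with the largest SE (0.109) and a log2 fold change of -0.23 (95% interval -0.45 to -0.01, adjusted p = 0.104). BOP1 passed without SMIP34 replicate 2 (-0.42, adjusted p = 0.00337) or control replicate 2 (-0.33, adjusted p = 0.0397), and was at -0.10 without SMIP34 replicate 1 and -0.12 without control replicate 3. WDR12 had a log2 fold change of -0.10 (adjusted p = 0.109), and passed with GC offsets (-0.13, adjusted p = 0.0437) and without control replicate 3 (-0.13, adjusted p = 0.0444). PES1 had a log2 fold change of -0.03 (adjusted p = 0.482). DDX18, a helicase, was just above the threshold at 0.08 (adjusted p = 0.0536) and passed without control replicate 1 (0.10) or 3 (0.09). The remaining 60S genes NIP7, RRP1B, GNL3 (nucleostemin), RRP1 and NOP16 had log2 fold changes between -0.06 and 0.04, and none passed.

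The 3 multifunctional genes, of which NPM1 and NCL were among the most abundant members, differed in direction. NPM1 was at 1412, 1371 and 1346 CPM in control and 1283, 1299 and 1297 CPM with SMIP34, all lower, and it fell by 0.09 on the log2 scale (SE 0.025, adjusted p = 0.00667). Its counts held fractions in all 6 libraries, so that reads shared with other places or with overlapping genes are part of them. NCL was at 757, 746 and 768 against 758, 809.9 and 801 CPM, with overlapping groups, and did not pass (log2 fold change 0.06, adjusted p = 0.0829), but passed without control replicate 3 (0.07) or SMIP34 replicate 1 (0.09). DDX21, a helicase that links RNA polymerase I and rRNA processing, was at 214, 208 and 217 against 227, 230.3 and 217 CPM. It rose by 0.08 (SE 0.030, adjusted p = 0.0441), a call that was lost without SMIP34 replicate 1 (0.07) or 2 (0.06) or control replicate 1 (0.08) or 2 (0.06).

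Fold changes went with transcript length, both among the members and across all genes. Over the 60 members, the log2 fold change and the log2 of the summed exon length had a Pearson correlation of 0.507 and a Spearman correlation of 0.499, against 0.171 and 0.294 over the 13408 genes tested. These are descriptions across genes of the same libraries. Of the 7 members under 1500 bases, 4 were lower and none was higher, with a median log2 fold change of -0.105 beside -0.090 for the 2039 genes of that length. Of the 12 members over 4000 bases, none was lower and 6 were higher, with a median of 0.104 beside 0.061 for all such genes. The 41 members in between, with 4 lower and 11 higher, had a median of 0.055 beside -0.020. Over all lengths 17.2% of all genes tested were lower and 17.4% were higher. These shares were not taken per class of length, so the counts of members cannot be set against genes of equal length. GC content had correlations of -0.303 (Pearson) and -0.30 (Spearman) with the log2 fold change over the members, against -0.128 and -0.201 over all genes with a GC value. With GC offsets 7 members were lower (11.7%) and 12 were higher (20%), against 15.6% and 17.4% of all genes with a GC value. The calls of UTP20, WDR43, WDR75, HEATR1, IMP4, DDX52, DDX56 and DDX21 were lost.

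**Figure D5:**
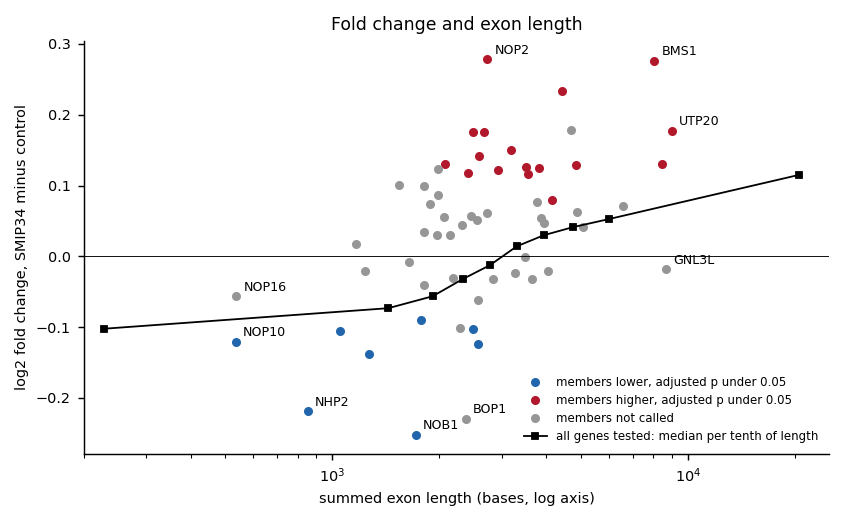
Log2 fold change (SMIP34 minus control) of the 60 members against summed exon length in bases (log axis), with the median of all genes tested in each of 10 equal-sized classes of length as a black line, drawn at the geometric mean of the shortest and longest gene of that class. The line runs from -0.102 in the shortest to 0.115 in the longest class, and the members lower with SMIP34 (blue) lie at shorter lengths than most of those that were higher (red).

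When the length trend of each library was removed with offsets, 3 members were lower (5% of them) and 21 were higher (35%), against 14.9% and 16.6% of all genes tested in that fit. NHP2 (-0.12, adjusted p = 0.000588), DKC1 (-0.10, adjusted p = 0.0153) and NOB1 (-0.19, adjusted p = 3.96e-05) still fell, and over all alternatives their adjusted p reached 0.00228, 0.0256 and 0.000304 at most. The calls of GAR1, NOP10, IMP4, DDX56 and NPM1 were lost, and NOP10 had a log2 fold change of 0.00. Of the 17 increases 13 were kept, among them BMS1 (0.20), RRP12 (0.21) and NOP2 (0.29), and those of NOL6, UTP20, HEATR1 and DDX21 were lost. FBL, NOP58, UTP18, RRP9, DDX47, BYSL, PNO1 and NCL passed as higher with the offsets but not without them. The median of the snoRNP genes then turned from -0.075 to 0.0071 and that of 60S assembly from -0.0084 to 0.055, while that of the SSU processome was 0.099. What part transcript length has in these differences was not tested.

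Further genes of the pathway, which are not members, were read from the same fit. They too were listed with earlier results of these data known. Of 82 such genes tested, 5 were lower (6.10%) and 21 were higher (25.6%), against 17.2% and 17.4% of all genes tested, with a median log2 fold change of 0.057. With length offsets 0 were lower and 29 were higher, where 14.9% and 16.6% of all genes tested were. Among 28 further 40S factors 1 was lower and 9 were higher, among 39 further 60S factors 3 were lower and 10 were higher, and among 15 exosome subunits and nucleases 1 was lower and 2 were higher. DDX24, a helicase of 60S assembly, was at 165, 167 and 168 CPM in control and 205, 205 and 203 CPM with SMIP34 and rose by 0.29 (SE 0.029, adjusted p = 1.24e-08). DIS3, a catalytic subunit of the exosome, rose by 0.23 (SE 0.039, adjusted p = 5.32e-05), and EXOSC5, a subunit of its core, fell by 0.16 (SE 0.042, adjusted p = 0.00381). NLE1 fell by 0.15 and C16orf42 by 0.14. WDR46 had the widest difference, from 4.48, 3.403 and 4.19 to 6.02, 8.55 and 6.43 CPM (log2 fold change 0.80). It is annotated on several haplotypes of chromosome 6, and what part this has in its count was not tested.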

How the data were processed

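RNA-seq was analysed from 3 control and 3 SMIP34-treated libraries of HEC-1-A cells, grouped by their labels. The deposited values are estimated counts, fractions included, that the authors obtained with featureCounts 1.5.0-p1 on the exons of the UCSC hg19 annotation, by strand, with reads of mapping quality of at least 2. Reads with several places or genes were divided, and 30 of the 60 members hold such fractions in some library. No normalization had been applied. The submitters' processing notes name bcl2fastq, HISAT2 and SAMtools beside featureCounts, the methods of the study name tophat2 and HTSeq, and the labels name kits of different makers.

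Values were rounded, genes with few counts were removed with filterByExpr, which left 13408 genes and all 60 members, and TMM factors of 0.988 to 1.01 were applied. The test was edgeR 4.0.16, quasi-likelihood, run under R 4.3.3 (newer method, Benjamini-Hochberg adjustment over all genes tested, threshold 0.05). The biological coefficient of variation was 3.03%. The chi-square per gene between libraries was 1.89 to 3.18 within groups and 8.41 to 12.6 between groups, so that no library was a copy of another. CPM are scaled by TMM factors, except those of the cell type markers, which are scaled to library size only. SEs come from the F statistic, and a level per kb is CPM over summed exon length. Members took values in every library by a rule: the 3 largest decreases and increases that passed in each role and the members with the highest and lowest level per kb. Values in every library of NOP10, NOLC1, BOP1, NCL and NHP2L1 were added after the values were seen. Alternatives were DESeq2 1.42.0, limma voom (limma 3.58.1), other scalings, filters and thresholds, a replicate block, per-library loess offsets (span 0.3) for exon length or GC content, and leaving out each library. The procedure was tested on simulated data. The changes put into single genes there were larger than that of any member, so recovery of changes of the size reported was not tested. Motifs were searched in the first listed RefSeq window of each gene. The members and gene lists were chosen with earlier results of these data known. Figures were drawn with matplotlib 3.10.9.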

Additional observations from a re-analysis of the deposited data

How the results depend on the processing

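No member passed the fold limit in any of the 19 fits, and no member that passed changed direction in them but NOP10, at 0.0034 with length offsets at most. NHP2, DKC1 and NOB1 (lower) and BMS1, MPHOSPH10, RRP12 and NOP2 (higher) passed in all 19. The count of 8 lower members became 4 with library size only, 4 with DESeq2 (with 10 in place of 17 higher), 5 with no filter on low counts, 3 with length offsets and 3 with length offsets and the replicate block. All genes called in either direction numbered 4645 in the report, 4706 with library size only and 3570 with DESeq2. They numbered 4393 with no filter on low counts, 4231 with length offsets and 4035 with these and the block. An adjusted p under 0.01 left 4 lower and 5 higher members, and the share of all genes at that threshold was not taken. Leaving out members with fractional counts left 3 lower and 9 higher, by fewer members. Leaving out 1 library gave 4 to 9 lower (5 without control replicate 1, 4 without SMIP34 replicate 3) and 10 to 14 higher (10 without SMIP34 replicate 2). In these fits 3706 (without control replicate 2) to 4646 (without control replicate 3) of all genes were called. The median over the members, on the log2 scale, was 0.053 in the report, 0.071 with library size only, 0.039 with upper quartile factors, 0.071 with length offsets, with and without the block, and 0.035 with GC offsets, which called 7 lower and 12 higher.

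The median of the snoRNP genes turned to 0.0071 with length offsets and to 0.0073 with length offsets and the replicate block, was -0.030 without members with fractional counts and ranged from -0.086 to -0.049 without 1 library. That of the SSU processome was 0.12 with library size only, 0.086 with upper quartile factors, 0.081 with GC offsets, 0.12 without members with fractional counts, and 0.083 to 0.11 without 1 library. That of the pre-40S genes was 0.11 with length offsets and 0.049 to 0.095 without 1 library. That of 60S assembly was near 0 and turned to 0.010 with library size only, 0.055 with length offsets, 0.055 with these and the block and 0.0078 with GC offsets, was -0.022 with upper quartile factors, and ranged from -0.019 to 0.013 without 1 library. For the 82 other genes of the pathway, 0 were lower with length offsets, with or without the block, and 3 to 7 without 1 library; their median was 0.075 with library size only, 0.081 with length offsets, 0.082 with length offsets and the block, and 0.031 to 0.066 without 1 library. The cause of these shifts was not tested. For the members named by rule, 296 of the comparisons with an alternative kept their side of the threshold, 62 lost it and 3 gained it.

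The libraries share replicate numbers, but the deviations of same-numbered libraries had correlations of -0.080, 0.019 and -0.128, so no pairing was assumed. With the replicate block 7 members were lower and 16 were higher, and 4432 of all genes were called in either direction. Differences under about 0.1 on the log2 scale were at the limit of what 3 libraries per group could call, since the median SE of the members was 0.043.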
